A study of Mus musculus with 4 samples.

Results

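The genes described here are 46 mitosis genes of G2 and M phase, taken by symbol from a fixed list and each present once among the 27998 genes of every table. They were followed in single mammary epithelial cells of FVB/NJ mice, sorted as CD24+ cells lacking the blood and endothelial markers Ter119, CD31 and CD45, and sequenced on a droplet platform that counts unique molecules (UMIs) at the 3' ends of transcripts. The 3 stages were puberty (5 weeks of age) and 2 phases of the adult ovarian cycle, estrus and diestrus (both 10 weeks of age), with no treatment or engineered allele in any group. Each adult phase was a pool of 2 mice, and the pubertal cells came from 6 mice. The 2 puberty tables shared 5387 barcodes, with per-cell totals correlated at 0.997, and were counted as 1 library, represented by the first table. Each stage therefore had 1 library and no replicate, no test was run between stages, and every interval given for a share, level or ratio is a 95% interval for counting error only.

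The libraries used held 5387 (puberty), 2729 (estrus) and 2439 (diestrus) cells, with medians of 4123, 3236 and 3974 UMIs per cell, and the members gave 35500, 16519 and 28833 of these counts. The estrus library was the shallowest, and different stages shared at most 24 barcodes. Cells were placed in 4 classes by lineage signatures that held no member and no other listed mitosis or S phase gene: basal, luminal progenitor (LP), mature luminal (ML) and luminal intermediate (Lum Int), the last lying between LP and ML cells. The defining markers followed the class names, with the 8 basal markers summing to 21402, 33763 and 21397 CPM (counts scaled to a total of 1e+06) in basal cells of puberty, estrus and diestrus and to at most 273 CPM in any luminal class. The LP markers summed to 42093, 34295 and 19363 CPM in LP cells, 10645 to 17850 CPM in Lum Int cells and at most 1987 CPM elsewhere. The ML markers summed to 12392, 13177 and 9027 CPM in ML cells, 5026 to 8086 CPM in Lum Int cells and at most 518 CPM elsewhere. The same markers seeded the classes, so this was partly built in. Immune markers summed to at most 1.40 CPM, endothelial markers to at most 14.5 CPM and fibroblast markers to at most 349 CPM over the 4 classes.

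A cell that divides copies its DNA in S phase, prepares in G2 and separates its chromosomes in M phase. Entry into mitosis is driven by the kinase Cdk1 bound to B-type cyclins, and exit follows when the anaphase-promoting complex marks those cyclins and other proteins for destruction. Many genes of this programme are transcribed late in the cycle, and their promoters often carry a cell cycle genes homology region (CHR), which is bound by the DREAM and MuvB complexes, together with CCAAT boxes bound by NF-Y.

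Promoter sequences, from 250 bases before to 50 bases after the transcription start in RefSeq (build GRCm38.p6), were matched by symbol for 39 of the 46 members. Those of 6 genes that trigger or end mitosis are shown as examples for the CHR and CCAAT matches counted below. They lie at chr10:69352863-69353162 on the minus strand for Cdk1, chr13:100786437-100786736 on the minus strand for Ccnb1, chr9:70421505-70421804 on the minus strand for Ccnb2, chr7:122159185-122159484 on the plus strand for Plk1, chr4:118437294-118437593 on the minus strand for Cdc20 and chr2:164769679-164769978 on the plus strand for Ube2c. All read 5' to 3' on the strand of the gene, and capitals mark every match to the CHR (TTTGAA or TTCGAA) or the CCAAT box (CCAAT) on either strand.
Cdk1: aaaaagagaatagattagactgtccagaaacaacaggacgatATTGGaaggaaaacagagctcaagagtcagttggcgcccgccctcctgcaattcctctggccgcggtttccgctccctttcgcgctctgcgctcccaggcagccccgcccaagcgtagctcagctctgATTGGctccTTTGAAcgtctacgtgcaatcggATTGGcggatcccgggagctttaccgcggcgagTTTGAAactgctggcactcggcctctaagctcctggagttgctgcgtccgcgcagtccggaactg
Ccnb1: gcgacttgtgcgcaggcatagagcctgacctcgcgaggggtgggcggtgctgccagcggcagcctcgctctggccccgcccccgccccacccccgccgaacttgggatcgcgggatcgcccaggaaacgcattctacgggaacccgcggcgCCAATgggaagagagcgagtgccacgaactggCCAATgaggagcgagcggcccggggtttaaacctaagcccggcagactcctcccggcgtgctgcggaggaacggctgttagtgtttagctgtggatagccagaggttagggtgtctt
Ccnb2: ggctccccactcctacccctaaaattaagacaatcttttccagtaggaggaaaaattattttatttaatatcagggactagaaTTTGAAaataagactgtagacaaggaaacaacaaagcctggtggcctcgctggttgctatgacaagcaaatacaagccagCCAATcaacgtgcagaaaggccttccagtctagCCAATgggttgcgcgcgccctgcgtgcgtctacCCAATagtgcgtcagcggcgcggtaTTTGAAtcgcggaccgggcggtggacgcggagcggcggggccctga
Plk1: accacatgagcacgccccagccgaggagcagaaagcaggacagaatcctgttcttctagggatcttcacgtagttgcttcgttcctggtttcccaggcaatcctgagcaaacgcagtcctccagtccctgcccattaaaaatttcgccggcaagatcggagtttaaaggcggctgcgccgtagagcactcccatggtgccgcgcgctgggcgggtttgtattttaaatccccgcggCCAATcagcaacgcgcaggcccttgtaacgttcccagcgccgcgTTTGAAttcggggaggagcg
Cdc20: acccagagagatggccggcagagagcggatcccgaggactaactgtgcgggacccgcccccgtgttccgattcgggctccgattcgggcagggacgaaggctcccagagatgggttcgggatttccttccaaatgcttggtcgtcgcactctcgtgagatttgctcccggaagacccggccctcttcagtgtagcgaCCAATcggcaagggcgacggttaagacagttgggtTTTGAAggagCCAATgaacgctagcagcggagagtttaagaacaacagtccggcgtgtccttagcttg
Ube2c: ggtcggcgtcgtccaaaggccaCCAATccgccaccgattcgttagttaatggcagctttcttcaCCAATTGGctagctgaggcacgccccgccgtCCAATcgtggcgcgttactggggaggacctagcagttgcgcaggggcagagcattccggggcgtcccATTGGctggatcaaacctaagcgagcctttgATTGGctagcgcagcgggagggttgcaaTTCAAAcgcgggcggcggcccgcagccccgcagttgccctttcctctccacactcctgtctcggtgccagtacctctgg
Of these 6 promoters, the one of Ccnb1 had no match to the CHR letters in this window, and all 6 had a CCAAT box. Across the 39 members, 30 (76.9%) had a CHR match, against 21.7% of the 27025 genes with a promoter in the table. A CHR match beginning no more than 60 bases before the start was present in 26 members (66.7%) and in 6.79% of all genes. A CCAAT box was present in 31 members (79.5%) and 41.1% of all genes, and both motifs were present in 25 members (64.1%) and 8.61% of all genes. E2F-type sites (TTCGCGC or TTGGCGC) matched in 6 members (15.4%) and 4.47% of all genes, and an E2F-type match can share bases with a CCAAT box, as in the promoter of Ccnb1. Tpx2, Pbk, Cdca2, Cdc25c, Smc4, Dlgap5 and Aurkb had no entry. A match describes letters in the window and is not a measured binding site.

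Most members were rarely detected in cells without any other member and were detected more often in cells with at least 5 others. Every cell was thinned at random to 2000 UMIs, cells below that depth were left out, and cells with UMIs of at least 5 other members were compared with cells without any other member. Cells between these limits entered neither set. This split describes how the list holds together and is not a test of it. Cdk1, the kinase that triggers mitosis, was detected in 45.4% to 49.1% of the first set over the 3 libraries and in 0.418% to 0.656% of the second. Ube2c, the enzyme that loads ubiquitin for the anaphase-promoting complex, was detected in 48.6% to 55.5% against 0.418% to 0.795%. Top2a, which untangles replicated DNA, was detected in 25.6% to 28.0% against 0.105% to 0.610%. Each of these 3 genes was thus rare in cells with no other member in every library.

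No UMI of 6 members, Cdc25c, Bub1, Ttk, Nek2, Aurkb and Hmmr, was found in the 652 to 2121 cells per library that had no other member, which allows shares of up to 0.174% to 0.564%. Their shares in the first set were low, from 1.87% to 19.3%. Hmgb2, a chromatin protein, behaved differently, with 85.4% to 95.2% of cells in the first set and 17.8% to 29.7% in the second. Cks1b, a subunit of cyclin-dependent kinases, was detected in 13.9% to 17.8% of cells without another member, and its relative Cks2, the condensin subunit Smc4 and the nuclear envelope gene Tmpo in 4.67% to 8.81%. These 5 broadly detected members were left out in an alternative of every module value. Hjurp, the chaperone of the centromeric histone, was detected in 1.77% to 2.68% of the first set and 0.749% to 1.06% of the second, with intervals apart in puberty and overlapping in estrus and diestrus.

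**Figure D1:**
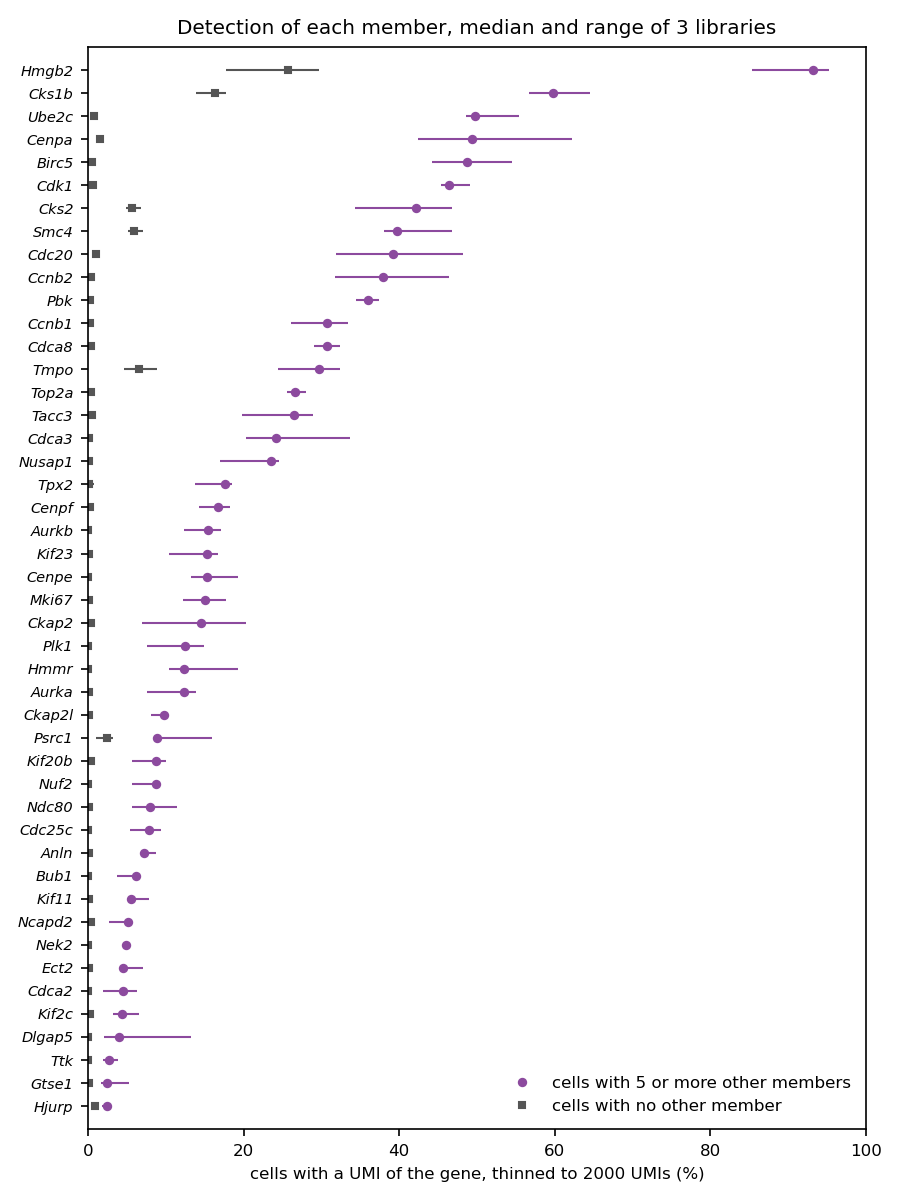
Share of cells with a UMI of each member (x axis, percent, after thinning to 2000 UMIs), for cells with at least 5 other members (circles) and cells with none (squares); points are medians and lines the range of the 3 libraries. Hmgb2 and Cks1b sit highest in cells with no other member, and most other members lie below 1% there.

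A cell with at least 5 of the 46 members after thinning was called module-positive. Basal cells were positive in 12.6% of cases in puberty (111 of 878, 10.5% to 15.0%), 5.15% in estrus (49 of 951, 3.84% to 6.75%) and 19.7% in diestrus (169 of 859, 17.1% to 22.5%). LP cells were positive in 6.89% (113 of 1639, 5.72% to 8.23%), 3.21% (13 of 405, 1.72% to 5.43%) and 13.2% (67 of 509, 10.3% to 16.4%). ML cells were positive in 7.004% (144 of 2056, 5.94% to 8.19%), 7.09% (52 of 733, 5.34% to 9.20%) and 8.15% (51 of 626, 6.13% to 10.6%). The intervals of estrus and diestrus were apart in basal and LP cells and overlapped in ML cells. Of the Lum Int cells, 6 of 172 pubertal ones were positive (3.49%, 1.29% to 7.44%). In estrus 0 of 82 were, which allows a share of up to 4.40%, and in diestrus 2 of 73 (2.74%, 0.334% to 9.55%).

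The difference between diestrus and estrus was 14.5 percentage points in basal cells (11.5 to 17.6), 9.95 points in LP cells (6.37 to 13.5) and 1.05 points in ML cells (-1.87 to 4.04). Puberty lay 0.229 points above the mean of the adult phases in basal cells (-2.45 to 3.02), and differed by -1.29 points in LP cells (-3.59 to 0.786) and -0.617 points in ML cells (-2.54 to 1.17). Positive cells were larger libraries than negative ones, with medians of 7798 against 4243 UMIs in puberty, 9855 against 3673 in estrus and 8746 against 4156 in diestrus, so the limit of 2000 UMIs bears on the share. The second puberty table, with a median of 2702 UMIs per cell, gave 110 positive basal cells of 538 (20.4%), and the sum of both tables gave 106 of 1128 (9.40%). Counted over all cells of the class, with the shallower ones taken as not positive, basal shares were 9.81% in puberty (9.69% and 9.40% with the second table and the sum), 3.76% in estrus and 16.1% in diestrus. On that count LP cells had 6.30%, 2.69% and 11.6%, and ML cells 6.61%, 6.52% and 7.42%. Without thinning, the basal shares were 15.6%, 7.07% and 25.8%, those of LP cells 9.87%, 5.17% and 21.7%, and those of ML cells 11.7%, 10.8% and 14.3%. The unthinned Lum Int shares were 8.47%, 2.38% and 19.7%, so the diestrus share of these deeply sequenced cells lay above that of ML cells only before thinning.

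**Figure D2:**
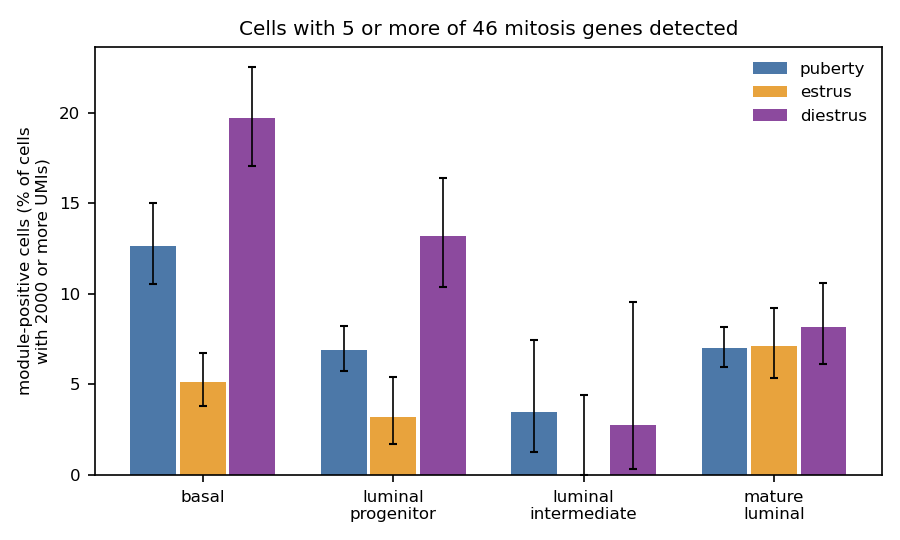
Module-positive cells as a percent of cells with 2000 or more UMIs (y axis) in the 4 classes of each library; bars are shares and whiskers exact binomial 95% intervals. Basal cells run from 5.15% in estrus to 19.7% in diestrus, while the 3 ML bars lie between 7.004% and 8.15%.

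Among cells with at least 2000 UMIs, positive cells carried most of the member UMIs. Their part ran from 60.9% in LP cells of estrus to 82.2% in basal cells of diestrus. Positive cells were chosen by their members, so a high part was favoured in advance. Within them the median number of members detected was 9, 8 and 10 in basal cells of puberty, estrus and diestrus, 8, 13 and 9 in LP cells and 8, 11 and 10 in ML cells. The estrus LP value rests on 13 cells. The negative basal cells of diestrus held 1.41 member UMIs per cell after thinning, against 0.998 in estrus, and 26.8% of all basal cells of diestrus had no member at all against 41.0% in estrus.

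Summed over all cells of a class, the 46 members together made up 2063 CPM in basal cells of puberty, 1328 CPM in estrus and 3307 CPM in diestrus. In LP cells they made up 1509, 1253 and 2229 CPM, in ML cells 1479, 1722 and 1570 CPM, and in Lum Int cells 825, 360 and 734 CPM. Ratios between stages were taken after trimmed-mean (TMM) scaling of the 12 sums of class and library. In a sum, more dividing cells and more RNA per dividing cell cannot be told apart. The module was 2.49 times higher in diestrus than in estrus in basal cells (2.42 to 2.57), 1.78 times in LP cells (1.70 to 1.87) and 0.912 times in ML cells (0.881 to 0.943). The ML value turned to 1.32 (1.25 to 1.39) when the 5% of cells with the most UMIs in each library were left out, and the basal and LP values then stood at 2.97 (2.86 to 3.08) and 2.18 (2.05 to 2.31). Those cells held 63.4% of the member UMIs of ML cells in estrus (52 of 798 cells) and 45.1% in diestrus (32 of 687 cells). Among these ML cells, 29 of 52 in estrus (55.8%) and 21 of 32 in diestrus (65.6%) were module-positive. The cut thus also removed many of the positive cells. Whether they are single cells was not tested.

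In basal cells, all 46 members were higher in diestrus than in estrus, and 43 were at least 2 times higher, against 6% of the 10658 genes with at least 20 counts in the compared pair. The median log2 ratio was 1.51 for the members and -0.09 for all these genes, and the interval of 44 members lay above 1. Mki67, the antigen that coats mitotic chromosomes and marks proliferating cells, stood at 16.8 CPM in puberty, 4.6 in estrus and 29.3 in diestrus, a ratio of 6.44 (4.05 to 10.7). Kif11, the motor that pushes spindle poles apart, stood at 5.6, 2.2 and 11.8 CPM with a ratio of 5.42 (2.75 to 11.9). Hmmr, a spindle assembly factor, stood at 12.2, 5.4 and 24.5 CPM with a ratio of 4.53 (2.92 to 7.28). In each of these, puberty lay between the adult phases. The 3 lowest ratios were those of Tmpo, at 1.29 (1.12 to 1.48), Gtse1, a microtubule-binding gene, at 1.63 (0.927 to 2.94), and Cdca2, which recruits a phosphatase to chromatin, at 1.64 (0.948 to 2.92).

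The core regulators were higher in diestrus as well. Cdk1 was at 72.6, 43.8 and 156.8 CPM in puberty, estrus and diestrus, a diestrus to estrus ratio of 3.58 (3.06 to 4.20). Ccnb1, which encodes cyclin B1, was at 45.5, 31.6 and 86.8 CPM with a ratio of 2.74 (2.27 to 3.34). Plk1, a kinase of spindle assembly, was at 7.9, 6.3 and 21.9 CPM with a ratio of 3.48 (2.29 to 5.44). All 3 were highest in diestrus and lowest in estrus, as was Top2a at 30.5, 18.4 and 61.7 CPM with a ratio of 3.35 (2.62 to 4.31).

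In LP cells, 44 members had at least 20 counts in the pair, and 20 of them were at least 2 times higher in diestrus, against 7.81% of 8987 genes. The median log2 ratio was 0.91 for the members and -0.05 for all genes, 43 of the 44 ratios lay above 1, and the interval of 27 lay above 1. Top2a led, at 27.9 CPM in puberty, 7.8 in estrus and 48.6 in diestrus, a ratio of 6.24 (3.66 to 11.5). Kif11 followed at 4.24 (1.25 to 22.4) on 19 and 3 counts, and Aurkb, the kinase that corrects spindle attachment, at 3.46 (2.04 to 6.21). Cdk1 had a ratio of 2.92 (2.21 to 3.90), Mki67 of 2.34 (1.32 to 4.37), Plk1 of 2.05 (1.10 to 4.07) and Ccnb1 of 1.35 (0.963 to 1.91). The lowest ratios were those of the phosphatase Cdc25c, which activates Cdk1, at 0.948 (0.427 to 2.17), the centromeric histone Cenpa at 1.12 (0.894 to 1.41) and Hjurp at 1.16 (0.523 to 2.69), so the 3 genes at the low end had intervals that included 1.

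In ML cells the members spread to both sides of 1. None of the 45 with at least 20 counts was at least 2 times higher in diestrus, against 4.61% of 9821 genes, and 7 were at least 2 times lower, against 4.63%. Without the 5% of cells with the most UMIs, 35 members passed the count limit, 7 were at least 2 times higher and 2 at least 2 times lower, so both counts depend on those cells. Over all cells the median log2 ratio was -0.25 for the members and -0.07 for all genes, with 11 of 45 ratios above 1. The 3 lowest were Nek2, a centrosome kinase, at 4.8, 5.2 and 1.4 CPM in puberty, estrus and diestrus (ratio 0.265, 0.0786 to 0.711), Cdc25c at 5.4, 9.7 and 3.3 CPM (0.340, 0.163 to 0.656) and Dlgap5, a spindle assembly factor, at 5.2, 6.3 and 2.5 CPM (0.391, 0.162 to 0.853). Nek2 in diestrus rests on 5 counts. The 3 highest were Aurkb at 1.42 (0.948 to 2.13), Cks1b at 1.41 (1.24 to 1.60) and Tmpo at 1.40 (1.14 to 1.73). Plk1 stood at 20.5 CPM in estrus and 8.2 CPM in diestrus in ML cells, a ratio of 0.401 (0.256 to 0.612), while Top2a had a ratio of 0.989 (0.756 to 1.29) and Cdk1 of 0.946 (0.803 to 1.11). Without the cells with the most UMIs, the ML ratio of Plk1 was 0.470 (0.201 to 1.01), that of Cdc25c 0.130 (0.0147 to 0.545), that of Top2a 2.19 (1.27 to 3.86) and that of Cdk1 2.29 (1.68 to 3.15). Cdk1 and Top2a thus stood near 1 or above 2 according to whether these cells were counted.

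**Figure D3:**
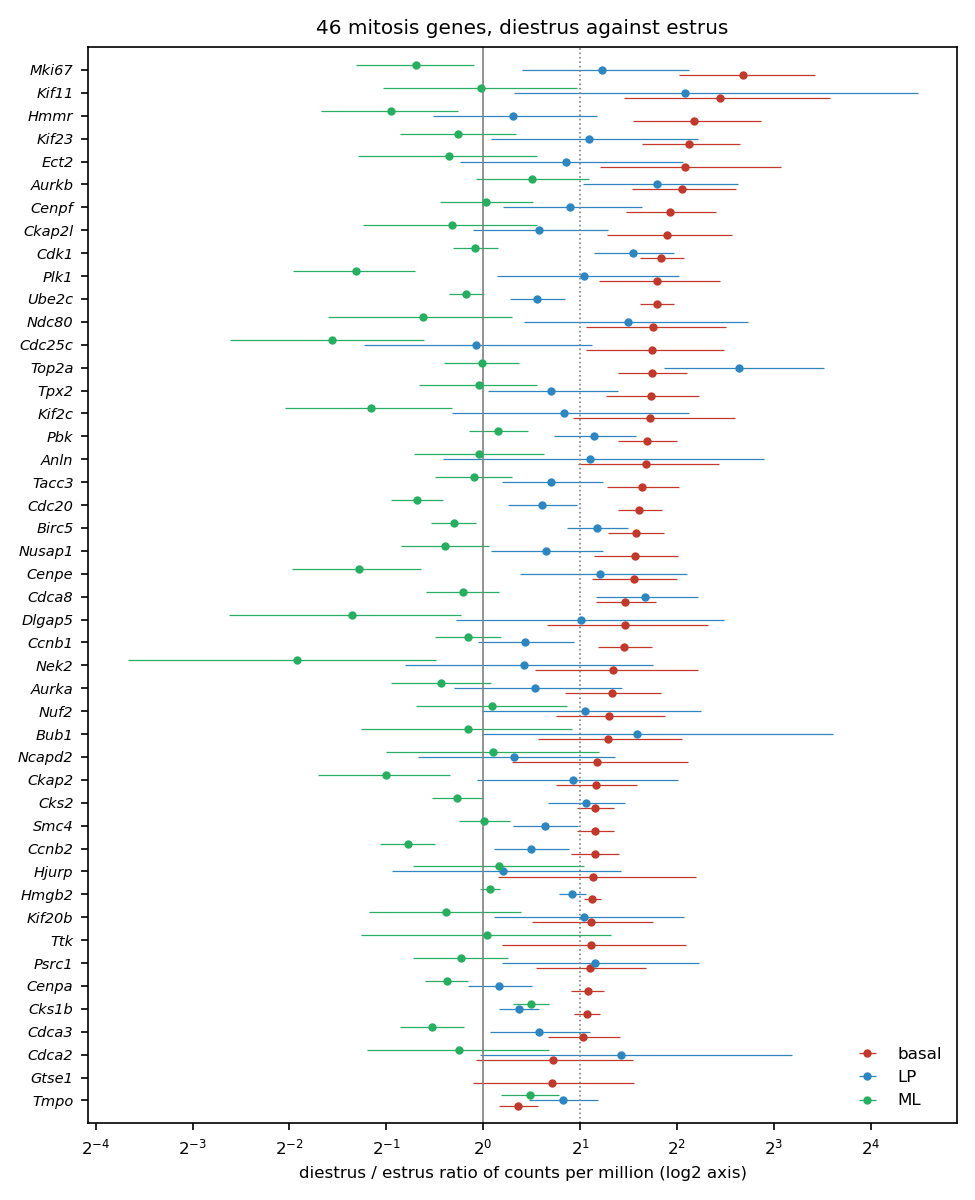
Diestrus to estrus ratio of each member (x axis, ratio of CPM on a log2 scale) in basal, LP and ML cells, for members with at least 20 counts in the pair; points are ratios, whiskers exact 95% counting intervals, and the dotted line marks a ratio of 2. Basal points lie to the right of 1 for all 46 members, and most ML points lie to its left.

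Puberty lay mostly between the adult phases in basal cells, where 42 of 46 members were above estrus and 45 were below diestrus. At least 2 times higher than estrus were 8 members (7.43% of all genes), and at least 2 times lower than diestrus were 22 (5.63%). In LP cells, 15 of 45 members were at least 2 times lower in puberty than in diestrus (5.49%), while against estrus 3 were at least 2 times higher (8.01%) and 2 at least 2 times lower (5.27%) of 43. In ML cells, 7 of 46 members were at least 2 times lower in puberty than in estrus (4.77%) and 1 at least 2 times higher (7.15%), and against diestrus 3 were at least 2 times higher (6.78%) and 3 at least 2 times lower (3.98%). These 3 comparisons share libraries with one another.

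Lineages were compared with edgeR's quasi-likelihood test on 12 sums, 1 per class and library, with the library as a block, so that the 3 libraries served as replicates of a lineage at different stages. The p-values were adjusted by the Benjamini-Hochberg method over all 11177 genes tested, and a call needed an adjusted p under 0.05. Between basal and luminal cells (the mean of LP and ML), 11 of 46 members were called higher in basal cells and 1 lower, against 28.4% and 26.1% of all genes. The median log2 difference was 0.34 for the members and 0.02 for all genes. The 5 higher members with the smallest p were Tmpo (log2 difference 0.60, SE 0.11, adjusted p = 0.000296), Ckap2, a spindle protein (1.28, SE 0.26, adjusted p = 0.000675), Smc4 (0.60, SE 0.15, adjusted p = 0.00245), Cenpa (0.81, SE 0.20, adjusted p = 0.00323) and Cks1b (0.41, SE 0.11, adjusted p = 0.00418). Ccnb1 was also called higher (0.73, SE 0.22, adjusted p = 0.0103), while the log2 differences of Cdk1 (0.25, SE 0.23), Top2a (0.20, SE 0.28), Mki67 (0.05, SE 0.36) and Plk1 (0.02, SE 0.38) did not pass. The share of members called was thus below that of all genes. Without the diestrus library 3 members were called higher and 3 lower. Without the estrus library 25 were called higher, and 25 were also called higher without the 5% of cells with the most UMIs. In puberty, estrus and diestrus that cut removed 19.5%, 42.5% and 33.6% of the member UMIs of basal cells, against 48.8%, 63.4% and 45.1% of those of ML cells.

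Birc5, the survivin subunit of the chromosomal passenger complex, was the member called lower in basal cells (log2 difference -0.74, SE 0.27, adjusted p = 0.0267). This call depended on the setting. No member was called lower in basal cells by DESeq2, without the library block or without the 5% of cells with the most UMIs. The same held without the puberty library and without the estrus library. Among module-positive cells Birc5 was detected in 29.7%, 28.6% and 37.3% of basal cells in puberty, estrus and diestrus, in 61.1%, 69.2% and 59.7% of LP cells and in 60.4%, 76.9% and 51.0% of ML cells. The basal share was the lowest in every library, with differences of -40.7 to -22.4 points from LP cells and of -48.4 to -13.7 points from ML cells. In sums over all cells, the basal level stood at 49.0, 29.0 and 86.6 CPM, the LP level at 79.8, 57.1 and 129 CPM and the ML level at 75.8, 85.1 and 68.9 CPM, so basal cells exceeded ML cells in diestrus. The intervals of the basal and LP shares of positive cells were apart in puberty and diestrus, and those of the basal and ML shares in puberty and estrus. Some other members also had differences of 1 sign in all 3 libraries, without a test. The share of positive cells with Ckap2 was higher in basal than in LP cells by 5.49 to 10.9 points and than in ML cells by 8.54 to 15.1 points. The share with Cks1b was higher in basal than in LP cells by 10.5 to 30.9 points, and its LP minus ML difference ran from -32.7 to -5.56 points. The share with Smc4 was higher in LP than in ML cells by 14.0 to 21.2 points. Some of these differences were within the intervals of the shares, and the estrus LP shares rest on 13 positive cells.

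Between LP and ML cells, 5 members were called, against 41.5% of all genes. Cks1b (log2 difference 0.47, SE 0.13, adjusted p = 0.0068), Tmpo (0.52, SE 0.14, adjusted p = 0.00567) and Ckap2l, a spindle protein (0.94, SE 0.36, adjusted p = 0.0496), were higher in LP cells. For Cks1b this holds for the sums over all cells, since its share among positive cells was the lower one in LP cells in each library. Anln, a scaffold of the cleavage furrow (-1.46, SE 0.43, adjusted p = 0.0127), and Psrc1, a microtubule-binding protein (-1.25, SE 0.30, adjusted p = 0.00329), were higher in ML cells. Psrc1 stood at 40.1, 19.6 and 16.8 CPM in ML cells of puberty, estrus and diestrus and at 12.5, 6.2 and 13.9 CPM in LP cells, so ML exceeded LP in each library. It was also detected in 1.04% to 3.24% of cells without any other member. The median log2 difference of the members was -0.02, and its sign depended on the libraries used. Without the diestrus library 1 member was called higher in LP cells and 5 lower, with a median of -0.36. Leaving out estrus gave 4 higher and 2 lower, with a median of 0.29, and leaving out puberty 2 higher and 1 lower, with a median of -0.02. Without the 5% of cells with the most UMIs, 15 members were called higher in LP cells and 1 lower, of 44 tested, with a median of 0.73. This cut was uneven between the classes. In puberty, estrus and diestrus it removed 48.8%, 63.4% and 45.1% of the member UMIs of ML cells, against 20.5%, 44.0% and 31.8% of those of LP cells. Without the library block none of the 46 was called between LP and ML cells, with 4 at an unadjusted p under 0.05, and DESeq2 called 4.

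Lum Int cells had the lowest module level of the 4 classes in every library. Against the mean of LP and ML cells, 10 members were called lower and none higher, against 0.483% and 2.70% of all genes. The median log2 difference was -1.65 for the members and 0.02 for all genes. The 10 were the passenger kinase Aurkb (-3.41, SE 0.65, adjusted p = 0.00614), the spindle protein Nusap1 (-3.17, SE 0.63, adjusted p = 0.00812), Ccnb1 (-2.91, SE 0.54, adjusted p = 0.00528), Ube2c (-2.23, SE 0.44, adjusted p = 0.00761), Cdk1 (-2.20, SE 0.41, adjusted p = 0.00544), Cenpa (-2.17, SE 0.37, adjusted p = 0.00242), Ccnb2, which encodes cyclin B2 (-2.07, SE 0.39, adjusted p = 0.00551), the kinase Pbk (-2.004, SE 0.40, adjusted p = 0.00908), Birc5 (-1.52, SE 0.38, adjusted p = 0.0392) and Hmgb2 (-0.90, SE 0.15, adjusted p = 0.00198). The Lum Int sums held 848, 208 and 388 member counts in puberty, estrus and diestrus, and Ube2c had none in estrus. These cells were chosen by intermediate levels of LP and ML signatures and had the highest median depth, 5855, 5548 and 6552 UMIs.

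Other genes of the same pathway, 119 tested from a list of further mitosis genes, gave 43 higher and 10 lower calls between basal and luminal cells, with a median log2 difference of 0.38, against the 28.4% and 26.1% of all genes given above. Between LP and ML cells 13 were higher in LP and 9 in ML, against 41.5% of all genes, and in Lum Int cells none was called higher and 13 lower, against 2.70% and 0.483%. Of 43 S phase genes tested, 19 were called higher in basal cells and 2 lower (median 0.48), 9 were higher in LP and 1 in ML cells (median 0.31), and none was called higher and 8 lower in Lum Int cells (median -0.69). These counts stand against the same shares of all genes.

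The positive cells were next divided by S phase genes, a list of 44 replication genes without any member. A cell with at least 5 of these after thinning was called S-high. For puberty, estrus and diestrus, S-high cells made up 48.9% (of 374), 50.9% (of 114) and 56.4% (of 289) of the positive cells, against 4.19%, 2.33% and 13.3% of the negative cells. Among negative basal cells, the S-high share was 8.34%, 3.10% and 19.7%, and among negative ML cells 2.98%, 1.61% and 4.70%. In each class shown, the negative cells of diestrus had the highest S-high share.

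The shares of S-high and of other positive cells with each member were set side by side, as S-high minus other. Cenpa differed by -27.4, -33.8 and -47.5 percentage points in puberty, estrus and diestrus, Cdc20, the activator of the anaphase-promoting complex, by -18.9, -22.8 and -35.6 points, Ccnb2 by -18.3, -22.7 and -30.0 points, Ccnb1 by -17.0, -13.4 and -20.3 points and Ube2c by -19.7, -3.76 and -24.0 points. In the other direction, Pbk differed by 23.0, 21.6 and 27.9 points, Cdk1 by 13.3, 33.4 and 20.01 points and Top2a by 15.2, 25.4 and 11.6 points. The sign was the same in all 3 libraries for 18 members lower in S-high cells and 9 members higher, and 19 members had no common sign. Mki67 was among the last, with differences of 0.03, -2.40 and 1.49 points. The positive cells were chosen by the members themselves, so these differences describe the make-up of the set.

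**Figure D4:**
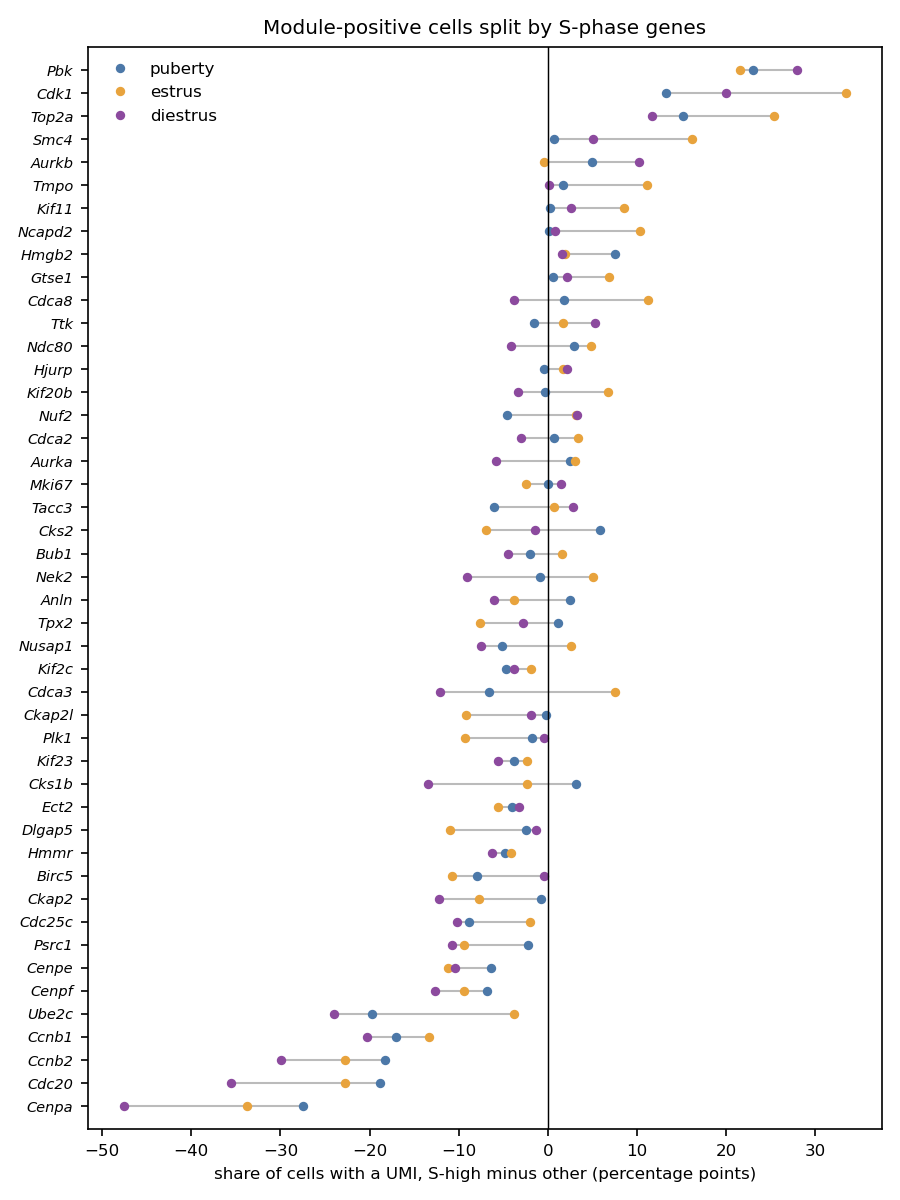
Share of module-positive cells with a UMI of each member, S-high minus other positive cells (x axis, percentage points after thinning), with 1 point per library and grey lines for the range. Cenpa lies furthest to the left in all 3 libraries, and by the mean of the libraries Cdc20, Ccnb2, Ccnb1 and Ube2c follow it, while Pbk, Cdk1 and Top2a lie right of 0 in all 3.

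Counts of 8 members may be shared with other genes: of the 31-base words in the last 400 bases of the longest transcript, over 10% occurred in other annotated genes for Cks1b, Cks2, Cdc20, Cenpf, Ndc80, Nuf2, Kif11 and Mki67, the highest being 34.3% for Cks1b. For 36 of the 46 members no word did.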

How the data were processed

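Droplet libraries of sorted mouse mammary epithelial cells were represented by 4 deposited tables. The authors made these counts with Cell Ranger 2.0 on build mm10, and each deposited value is a count of UMIs per gene and cell, not normalized. Cells were used as called by the authors. The puberty tables shared 5387 barcodes and were treated as 1 library. Cells were assigned in each library from 8 markers per lineage: seed cells led by a z-score of 1, signatures held up to 100 genes at least 2 times higher in the seeds and detected in 10% of them, and borders split the distance between seed medians into 3 parts. Non-epithelial cells and cells between basal and luminal were left out. A non-epithelial cell had 3 or more of the 5 genes of an immune, endothelial or fibroblast list. The mean level of that list also had to exceed the mean of the keratins Krt5, Krt14, Krt8, Krt18 and Krt19. No doublet caller was run. The only step that bears on doublets left out the 5% of cells with the most UMIs. That step also removes positive cells, which had more UMIs than negative ones, so it cannot tell doublets from dividing cells. A module-positive cell had 5 of 46 members after thinning to 2000 UMIs.

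Intervals were exact binomial for shares, exact Poisson for levels and exact conditional binomial for ratios, at 95%, and intervals of share differences were joined from the exact ones. A 0 was replaced by 3 counts in ratios. Lineages were fitted with edgeR 4.0.16 (TMM, filterByExpr, quasi-likelihood test) in R 4.3.3, with DESeq2 1.42.0 as an alternative. On simulated counts for LP against ML cells (11177 genes, 200 changed by a fold of 4), 93.5% were recovered with 9 false calls. The simulation had the same fixed spread for every gene and no effect of library or stage. It therefore does not cover smaller differences or those that vary with stage. With the library as a block, the p-values rest on how differences between classes varied over 3 libraries of different stages. All 4 classes shared the estimate of this spread. Totals were 25303015 counts in puberty, 10962454 in estrus and 11868593 in diestrus. Coordinates and promoters came from RefSeq on GRCm38.p6, 3' ends from GENCODE.

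The members, lists, named genes and tests were chosen with earlier results of these data known. Named were Cdk1, Ccnb1, Plk1, Top2a and Mki67, members called between lineages (all if at most 10, else the 5 smallest p in each direction), the 3 highest and 3 lowest diestrus to estrus ratios per lineage, the 10 other genes most raised in positive cells, and the lineage markers. Members named for detection, S phase or Lum Int values outside this rule were chosen after their values were seen.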

Additional observations from a re-analysis of the deposited data

Results flagged for a closer look

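The module-positive share of basal minus ML cells was 5.64 percentage points in puberty and 11.5 points in diestrus, but -1.94 points in estrus. It was singled out because the sign differed between stages. The difference was not tested, since each stage had 1 library. In estrus the counting intervals of the shares overlapped, at 3.84% to 6.75% in basal and 5.34% to 9.20% in ML cells. Those of puberty and of diestrus were apart. Counted with at least 3 members, the estrus difference was 0.798 points, so its sign depends on the limit.

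Cells between the basal and luminal signatures entered no comparison. They were singled out because members were detected in cells that no comparison used. In puberty, 8 of 72 such mixed cells with at least 2000 UMIs were module-positive, 11.1% (4.92% to 20.7%), in estrus 0 of 23, which allows a share of up to 14.8%, and in diestrus 2 of 35, 5.71% (0.700% to 19.2%). These intervals overlapped with one another. Whether these cells are single cells was not tested.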

How the results depend on the processing

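No paired analysis was possible because, for the comparisons of stages, the groups share fewer than 2 replicate numbers, each stage having 1 library. Lineages were compared within libraries, with the library as a block, and the counts without it are given below. Of 164 alternative values, 115 stayed within the counting interval or within 1.5 times the count, 46 moved further and 3 reversed from a value whose interval excluded 0. Another 13 had the other sign than a value whose interval included 0, 12 of them for the share of puberty minus adults; the cause was not tested unless stated. The alternatives with another random thinning, and with positive cells counted over all cells of a class, were chosen after the data were seen.

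The diestrus minus estrus share of basal cells was 18.7 points without thinning, 19.997 with at least 3 members, 10.5 with at least 8 and 11.2 without the 5 broadly detected members, and that of LP cells 16.5 without thinning and 13.8 with at least 3. The puberty minus adult share was 7.99 points with the second puberty table and -2.98 with the sum of both in basal cells, 1.51 with the second table in LP cells, and 3.29 (basal) and 0.805 (LP) under cell quality limits (1000 or more genes, mitochondrial counts below 10%).

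The diestrus to estrus module log2 ratio of basal cells was 1.26 without TMM, 1.57 without the top 5% of cells by UMIs, 1.27 under the cell quality limits and 1.55 without the broad members. In LP cells it was 0.97 by marker classes and 1.12 without the top 5%. In ML cells it was -0.28 without TMM, which moved the median of all genes by -0.15, -0.33 without the broad members, and reversed to 0.40 without the top 5%. The puberty to adult log2 ratio was -0.28 (basal), -0.53 (LP) and -0.36 (ML) without TMM. By marker classes it was -0.24, -0.15 and -0.068, and without the top 5% it was 0.069 (reversed), -0.051 and 0.098 (reversed). Under the quality limits it was -0.045, -0.090 and -0.091, without the broad members -0.31, -0.32 and -0.22, and with the second table in ML cells -0.099. Without the top 5%, 7 members in ML cells were at least 2 times higher in diestrus, not 0.

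Members differing between LP and ML cells numbered 10 with no filter, 0 with no library block, 16 without the top 5% and 3 to 6 when 1 library was left out (3 without puberty). Between basal and luminal cells they numbered 23, 6 and 25, and 6 (without diestrus) to 25 (without estrus). In Lum Int cells they numbered 30 with no filter, 3 with no library block and 16 by DESeq2. Single libraries per stage, 13 positive LP cells in estrus and few Lum Int counts limit what these data can show.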

Other observations

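The 10 other genes most raised in module-positive cells, ranked by the smallest ratio over the 3 libraries among genes with at least 50 counts in the positive cells of each, were Fam64a, Bub1b, Cdkn3, Ccna2, Kif20a, Cep55, Kif22, Casc5, Prc1 and Ska1. All 10 were in the list of other mitosis genes. Ccna2, which encodes cyclin A2, was 37.3, 85.6 and 30.9 times higher in positive than in negative cells of puberty, estrus and diestrus. Bub1b, a spindle checkpoint kinase, was 58.3, 68.3 and 35.9 times higher, and Prc1, which bundles microtubules of the central spindle, 35.0, 67.7 and 23.2 times higher. Of the 3187 genes with that many counts, 193 were at least 2 times higher in positive cells in all 3 libraries, and 36 of the 3187 were members. Positive cells were chosen by the members, so a high ratio was built in for any member among these genes.

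Lineage markers were mostly lower in the positive cells of their own lineage. Of 8 basal markers, 7 were lower in all 3 libraries, with Mylk, the myosin light chain kinase, at 0.18, 0.20 and 0.32 times the level of negative cells and Krt14 at 0.23, 0.27 and 0.61 times. Trp63, a transcription factor of basal cells, was at 0.97, 1.01 and 0.87 times. Of 8 LP markers, 5 were lower in all 3 libraries, with Trf, the transferrin gene, at 0.19, 0.22 and 0.29 times, and Aldh1a3 was higher in all 3, at 1.40, 1.06 and 1.05 times. The Aldh1a3 values rest on 179, 20 and 35 counts in positive cells. Of 8 ML markers, 5 were lower in all 3 libraries. Among these, the prolactin receptor gene Prlr stood at 0.41, 0.26 and 0.41 times and the progesterone receptor gene Pgr at 0.77, 0.65 and 0.32 times. The Pgr values rest on only 54, 8 and 6 counts in positive cells. Areg, which encodes a growth factor, was at 1.22, 1.67 and 1.41 times, and Cited1 at 1.30, 1.02 and 1.29 times. These ratios are of CPM and were given no interval, and positive cells had more UMIs in total.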
